A study of Drosophila melanogaster with 16 samples.

Results

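The genes described here are 45 Drosophila genes of mitosis and cytokinesis, taken from a list of gene symbols and ordered by what their products do in the dividing cell. Of the 45, 34 had a probe named by that single symbol, and all 34 were tested, among 12952 features tested in all (8841 named genes and probes with no gene name). Each of the 34 had 1 probe and a value on all 11 arrays. The other 11 (CycA, Cdk1, stg, polo, aurA, BubR1, Mps1, Klp3A, pav, sti and cnn) had no probe of that single symbol in the annotation used here and were not analysed here. The measurements are ratios of labelled cDNA on 2-colour arrays in DmD8 and Kc, established Drosophila cell lines from imaginal discs and from embryos. The activated RNA came from cells in which Notch had been activated with 2 mM EDTA in PBS for 30 min. In DmD8 the comparison RNA came from control cells given PBS or from cells kept overnight with 300 µM of the γ-secretase inhibitor DFK-167 before EDTA, which is not settled, because the columns of both experiments held the same values and were counted once. In Kc the other RNA came from control cells given PBS. There were 5 distinct DmD8 arrays and 6 Kc arrays.

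Entry into mitosis is driven by Cdk1 with its cyclins, which Cdc25 phosphatases switch on, and by Polo and Aurora kinases. Condensin compacts the chromosomes, kinetochores built on the centromere attach them to spindle microtubules, and the spindle checkpoint holds back the anaphase-promoting complex until all are attached. That complex then marks cyclins and securin for destruction, separase opens cohesin, and the central spindle and an actomyosin ring divide the cell. Notch is a receptor whose cut intracellular part switches on genes in the nucleus, among them those of the Enhancer of split complex, and EDTA activates it by stripping calcium from its extracellular part. EDTA also removes divalent ions from everything else on the cell surface, so where the other RNA came from cells given PBS, Notch activation and chelation cannot be told apart.

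Positive log ratios are read here as higher in activated RNA. That direction is likely, not stated. It rests on the dye order in the labels and on Notch target genes. By the labels, arrays 1 to 3 of each line carried activated RNA in Cy5 and the others in Cy3. Across both orientations E(spl)m3-HLH kept 1 sign in each line, whereas E(spl)mbeta-HLH did so in Kc only. E(spl)m3-HLH, a target that encodes a transcriptional repressor, had log ratios of 1.31, 0.87, 0.33, 1.80 and 1.49 on the DmD8 arrays, and from 3.92 to 4.55 on the Kc arrays. Its relative E(spl)mbeta-HLH had log ratios of 4.55 to 6.51 on the Kc arrays, whereas on the DmD8 arrays it lay between -0.26 and 0.27. Across all features, arrays of opposite orientation correlated at -0.03 (DmD8) and 0.01 (Kc), and arrays of 1 orientation at 0.54 (DmD8) and 0.61 (Kc), so arrays of a line resembled each other by dye. Each line mean below therefore weights both orientations equally. With the signs of the swapped arrays turned, 4 of the 34 mitosis genes were higher and 6 lower in DmD8 (17.1% of features were called in either direction), and 2 higher and 3 lower in Kc (20.0%). Each line mean in that reading equals the part of the gene that changes sign with the dye in the values as deposited. In that reading limma called no gene of the 34 and none of the 12952 features in DmD8 minus Kc (2 of the 34 and 752 features had an unadjusted p under 0.05), so the calls below rest on the deposited swaps having already been turned. Per the labels each line had 3 biological replicates with dye swaps, so arrays outnumber replicates and the standard errors and p-values over arrays are too small. A gene is called when its adjusted p in limma, with Benjamini-Hochberg adjustment over all features, is under 0.05.

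In DmD8 all 4 cytokinesis genes of the list with a probe, and 4 of its 6 spindle motor and microtubule genes, rose in activated RNA. Of 9 cytokinesis genes outside the list, 0 were called in DmD8 and 7 had a DmD8 line mean below 0. Among all features 7.24% were called and 7564 of 12952 lay below 0, so 9 genes are too few to show a contrast. Of 20 spindle motor and microtubule genes outside the list, 2 rose (10.0%, against 3.08% of all features). Of the 34 genes, 12 rose (35.3%) and 1 fell (2.94%), whereas 3.08% of all features rose and 4.16% fell (7.24% in either direction; among named genes 3.74% and 5.15%). The list was chosen with earlier results of these data known, so its shares here and below are a description only. The 12 that rose were the mitotic cyclin CycB, the Aurora A activator bora, the kinase aurB, the kinetochore gene Ndc80, the spindle genes Klp61F, ncd, nod and mars, and the cytokinesis genes feo, tum, scra and pbl. The condensin subunit gene barr fell. The median line mean of the 34 genes was 0.19 in DmD8, against -0.04 over all features, and 28 of the 34 had a line mean above 0, as had 41.6% of all features. With array medians set to 0, 3.91% of features rose and 3.24% fell, and again 12 of the 34 genes rose and 1 fell. Without DmD8 array 4, 7 of the 34 genes and 3.73% of features were called in DmD8, and without array 5, 6 genes and 4.51% of features. In a ratio of bulk RNA, fewer cells that express a gene and less of its RNA per cell cannot be told apart.

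In Kc 3 of 5 kinetochore and centromere genes of the list fell, and the deepest fall was that of the cytokinesis gene feo. Of 8 kinetochore and checkpoint genes outside the list, 0 were called in Kc, where 11.9% of all features were, too few genes for a contrast. A Kc line mean above 0 was found for 6 of the 8 and for 53.0% of all features. By limma 37.5% of the 8 had an unadjusted p under 0.05 in Kc, against 24.6% of all features. Of the 34 genes 1 rose, the microtubule polymerase gene msps (2.94%), and 8 fell (23.5%), against 7.10% and 4.81% of all features (11.9% in either direction; 8.62% and 6.24% of named genes). The 8 were the Cdc25 phosphatase gene twe, bora, the kinetochore and centromere genes Ndc80, Mis12 and cid, the chromokinesin gene nod, feo and the securin gene pim. The median line mean was -0.07 in Kc, against 0.01 over all features, and 21 of the 34 genes lay below 0, as did 47.0% of features. With centred arrays 5.69% of all features rose and 5.39% fell in Kc, and again 1 of the 34 genes rose and 8 fell. Kc arrays 2 and 5 both lay above the other 4 for 3.28% of the features present on every array and below them for 10.5% (2 and 2 of the 34 genes). Other pairs of Kc arrays were not counted, so these shares do not show that this pair is unusual. Without Kc arrays 2 and 5, 4 of the 34 were called in Kc, each of them lower (6.56% of features were called in either direction). The calls of Ndc80, Mis12, cid, nod and msps were lost.

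The test of the difference between the lines, DmD8 minus Kc, called 15 of the 34 genes, 13 higher (38.2%) and 2 lower (5.88%). Among all features 4.42% were higher and 6.51% lower (10.9% in either direction), or 6.01% and 4.72% with centred arrays, under which 17 of the 34 genes were higher and 1 lower. The median difference was 0.32 for the 34 genes and -0.06 over all features. Cell line and comparison RNA cannot be told apart in it, because the DmD8 comparison RNA may not be from control cells. The plot of line means by gene shows both lines side by side.

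**Figure D1:**
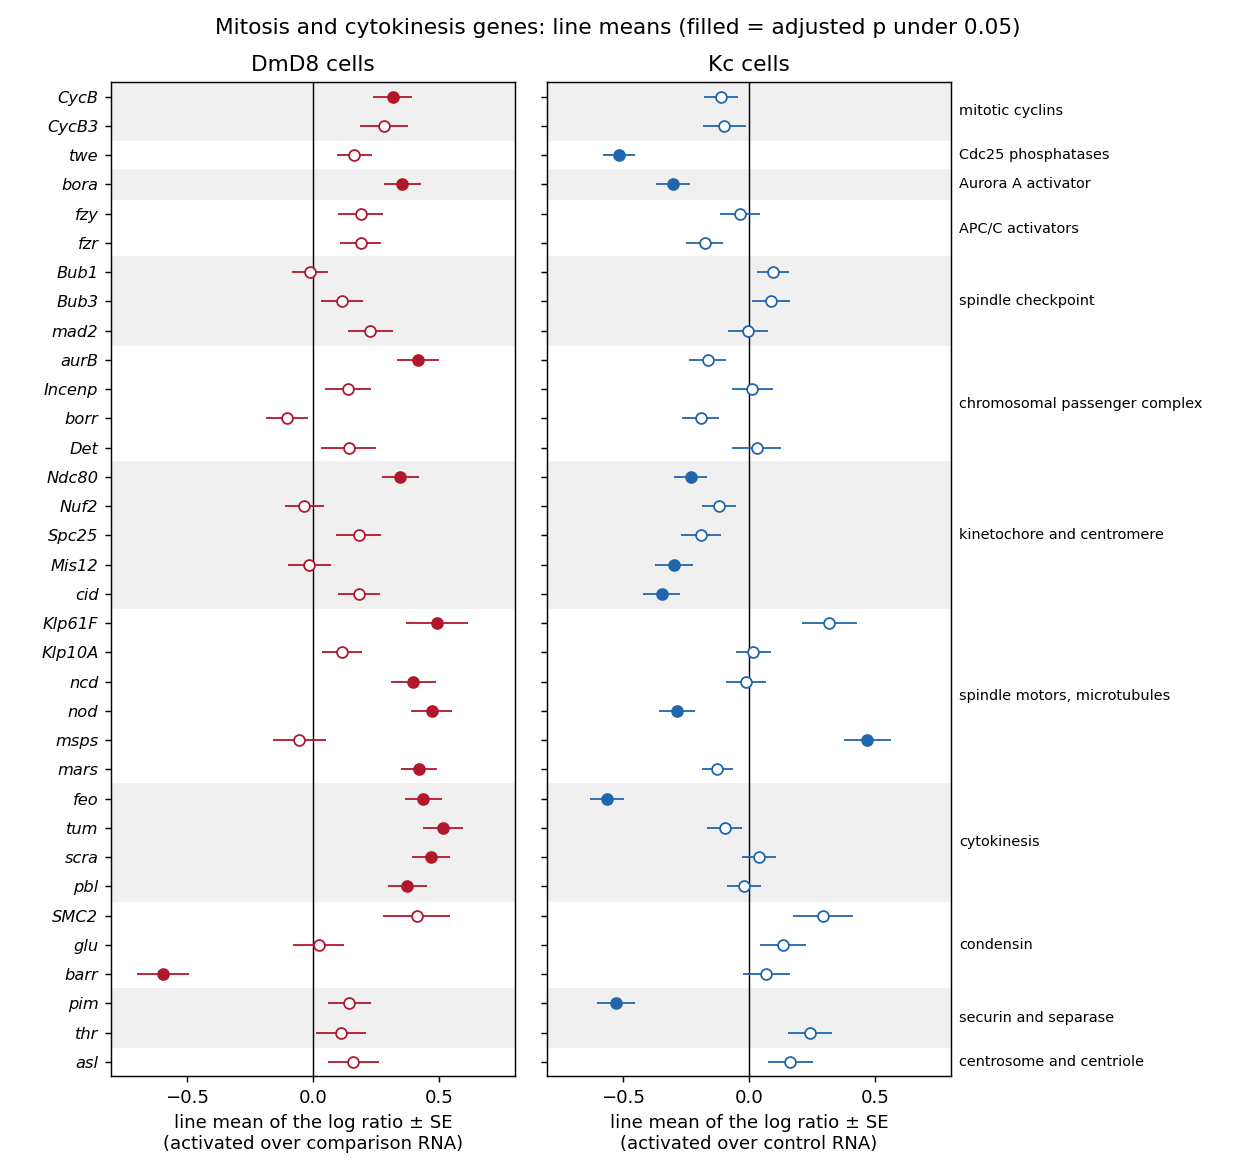
Line means of the log ratio (activated over comparison RNA in DmD8, activated over control RNA in Kc; x axes) with SE for the 34 genes, grouped by role. Filled points passed the adjusted p threshold in that line: 13 in DmD8, 12 of them to the right of 0, and 9 in Kc, 8 of them to the left of 0.

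By array, the median log ratio of the 34 genes was 0.16, 0.21, 0.01, 0.33 and 0.26 in DmD8, with medians over all features of -0.12, -0.09, -0.03, 0.01 and 0.00 on the same arrays. The 34-gene median was above that of all features on each of the 5 DmD8 arrays, by least on array 3. In Kc the 34-gene medians were -0.22, -0.09, -0.17, -0.06, -0.02 and -0.03, below those of all features (-0.04, -0.08, 0.05, 0.03, 0.03 and 0.12) on each of the 6 arrays, by least on array 2. Signs were also counted array by array: 9 genes were above 0 on all 5 DmD8 arrays (4.39% of features were) and 1 below 0 on all 5 (10.2%). On all 6 Kc arrays 1 gene was above 0 (7.67% of features) and 7 below 0 (5.14%). All DmD8 arrays lay above all Kc arrays for 8 genes (2.48% of the 10060 features with a value on every array) and below them for 1 (3.91%).

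**Figure D2:**
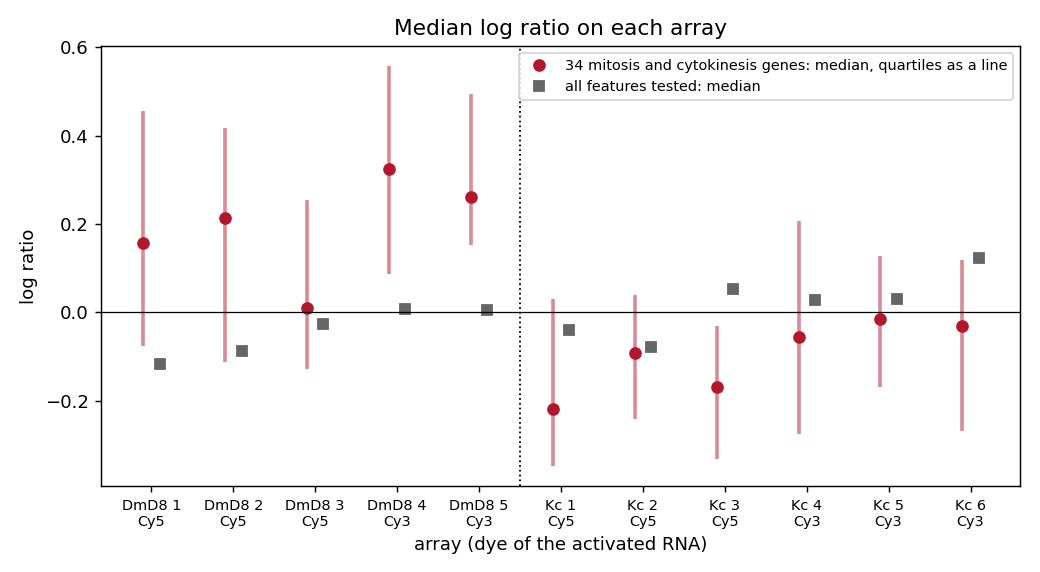
Median log ratio on each array (x axis: array, with the dye of the activated RNA) of the 34 mitosis genes and of all features (y axis: log ratio). The medians of the 34 genes lie above those of all features on the 5 DmD8 arrays and below them on the 6 Kc arrays.

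The labels do not say which swap belongs to which biological replicate, so swaps were averaged with replicates in all 36 possible ways. DmD8 has fewer swaps than Cy5 arrays, so in each way 1 DmD8 Cy5 array had no swap. That array had a term of its own and did not enter the DmD8 line mean. Counts out of 36 for DmD8 and for the difference therefore mix the choice of pairing with leaving out a Cy5 array. In DmD8 no gene of the 34 passed limma's threshold in all 36 (0.676% of features rose and 1.44% fell in all 36). An unadjusted limma p under 0.05 in each of the 36 was found for 14 genes. The share of all features with that was not counted, so the 14 cannot be judged against it. In the main fit 19.7% of all features had an unadjusted p under 0.05 in DmD8. The number of the 34 called in DmD8 ranged between 0 and 15, with a median of 10, and it was 0 in 1 of the 36 ways. Calls over all features moved as well: 242 of 10060 features were called in the way with fewest genes called, and 1649 in the way with most. In Kc, msps rose (3.82% of features) and twe, feo and pim fell (2.17%) in all 36 ways. In the difference, twe, bora, nod and feo were higher in DmD8 in all 36 ways (0.855%) and no gene of the 34 was lower (2.34%). Below, the number of these 36 ways in which a gene's call held is given as a count out of 36.

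**Figure D3:**
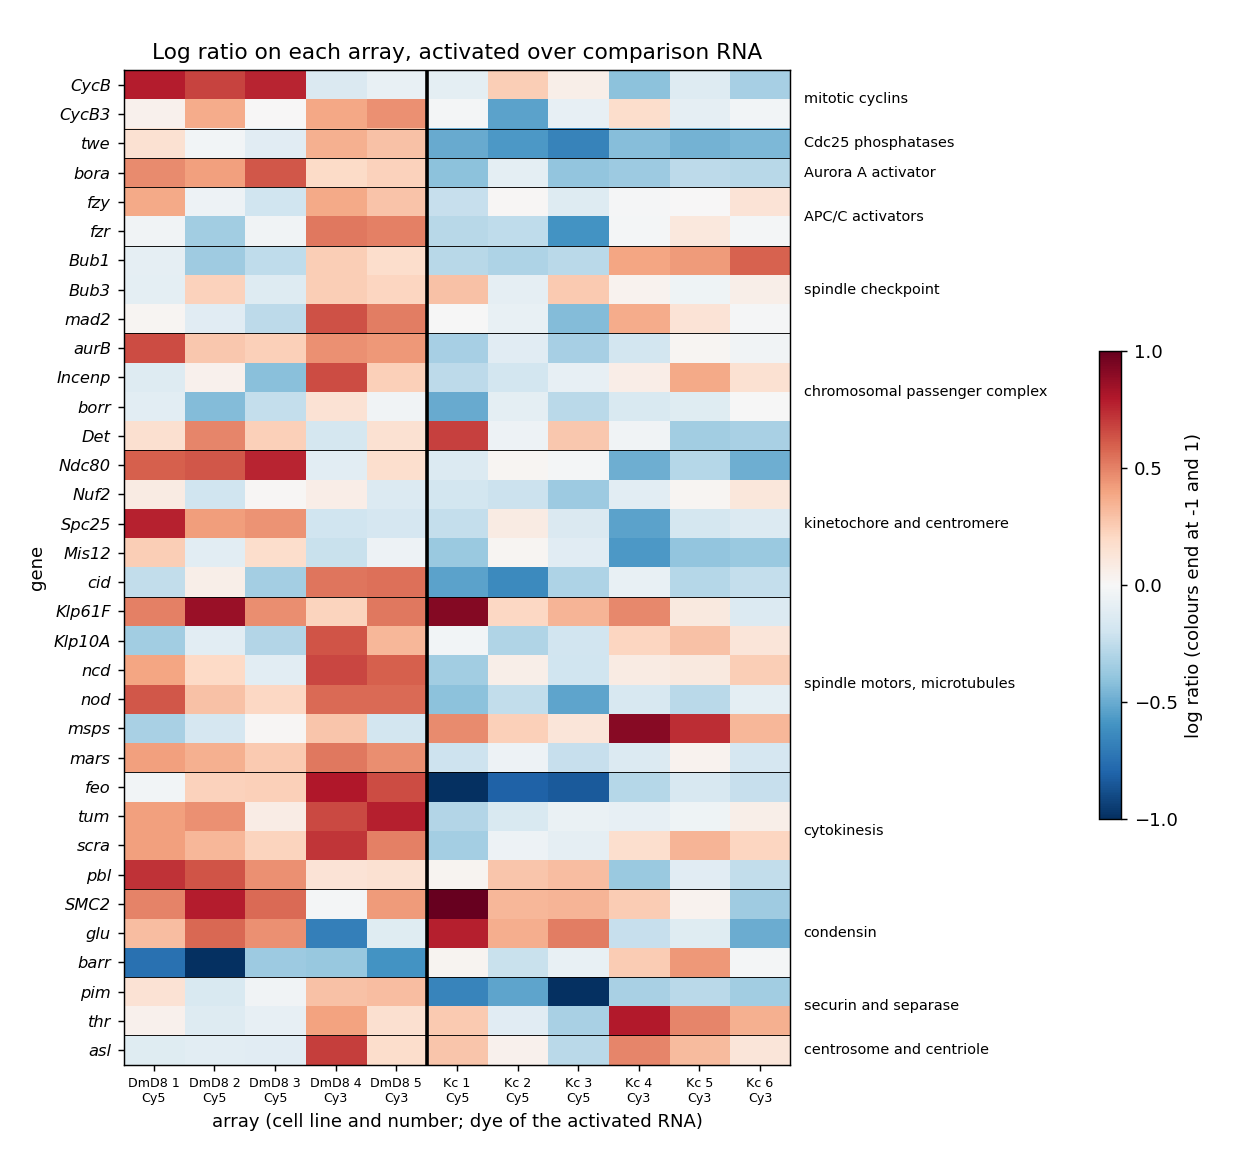
Log ratio of each of the 34 genes (rows, grouped by role) on each of the 11 arrays (columns: DmD8 left, Kc right, with the dye of the activated RNA below). Red is above 0 and blue below; colours end at -1 and 1, which 4 of the 374 values exceed, and feo runs from red in the DmD8 swaps to its deepest blue on the Kc arrays whose activated RNA was in Cy5.

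Of the genes that start mitosis, CycB, the B-type cyclin that partners Cdk1, had log ratios of 0.78, 0.68, 0.76, -0.14 and -0.07 on the DmD8 arrays and -0.41 to 0.24 with a median of -0.11 on the Kc arrays. Its DmD8 values were high where Cy5 marked activated RNA (mean 0.74) and near 0 on the swaps (mean -0.11). The line mean was 0.32 ± 0.08 in DmD8 (SE; adjusted p = 0.0275, limma) and -0.11 ± 0.07 in Kc (adjusted p = 0.366), with a difference of 0.43 ± 0.10 (adjusted p = 0.0211). The DmD8 call held in 6 of 36 ways and was lost when any 1 of the 5 DmD8 arrays was left out (adjusted p 0.0550 to 0.132), and the difference was lost without DmD8 array 5 (0.0626). CycB3, the other B-type cyclin on the list with a probe, had line means of 0.28 in DmD8 (adjusted p = 0.110) and -0.10 in Kc (adjusted p = 0.559).

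The gene bora, whose product activates Aurora A, had log ratios of 0.47, 0.41, 0.62, 0.19 and 0.23 on the DmD8 arrays, all above 0. Kc arrays gave -0.41 to -0.10 with a median of -0.32, all below 0, so the lines did not overlap. It rose in DmD8 by 0.35 ± 0.07 (SE; adjusted p = 0.0132, 17 of 36 ways) and fell in Kc with a line mean of -0.30 ± 0.07 (adjusted p = 0.0125, 29 of 36 ways). The difference between the lines was 0.66 ± 0.10 (adjusted p = 0.00204). In DmD8 the call was lost without array 4 (adjusted p = 0.0651) or array 5 (0.0755), while no single Kc array removed the Kc call.

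The phosphatase gene twe, a Cdc25 best known for meiosis in flies, had log ratios of 0.15, -0.02, -0.12, 0.36 and 0.29 on the DmD8 arrays, all above every Kc array. On the Kc arrays it had -0.50, -0.57, -0.67, -0.43, -0.47 and -0.45, close together and all below 0. In line means it stood at 0.16 ± 0.07 in DmD8 (SE; adjusted p = 0.217) and -0.52 ± 0.06 in Kc (adjusted p = 0.000339, 36 of 36 ways), and the difference was 0.68 ± 0.09 (adjusted p = 0.00110). No single array removed the Kc call or the call of the difference.

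Kinetochore and centromere genes were the group with the most calls in Kc: 1 of 5 rose in DmD8, and 3 of 5 fell in Kc. Ndc80, the microtubule-binding subunit for which its complex is named, had 0.60, 0.62, 0.76, -0.11 and 0.17 on the DmD8 arrays and -0.49 to 0.02 with a median of -0.21 on the Kc arrays. Its high DmD8 values were those with activated RNA in Cy5, and 1 DmD8 array lay within the Kc range. Its line mean was 0.35 ± 0.07 in DmD8 (SE; adjusted p = 0.0150, 16 of 36 ways) and -0.23 ± 0.07 in Kc (adjusted p = 0.0423, 6 of 36 ways), with a difference of 0.58 ± 0.10 (adjusted p = 0.00412). The Kc call was lost without any 1 of the 6 Kc arrays (adjusted p 0.0606 to 0.133) and the DmD8 call without array 5 (0.122).

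The gene cid encodes the centromeric histone H3 variant on which the kinetochore is built. It had log ratios of -0.24, 0.05, -0.34, 0.53 and 0.55 on the DmD8 arrays and -0.53, -0.64, -0.31, -0.08, -0.29 and -0.24 on the Kc arrays, where all were below 0. Its DmD8 values split by dye, with a mean of -0.18 where activated RNA was in Cy5 and 0.54 on the swaps, and 2 of them fell within the Kc range. The line mean was 0.18 ± 0.08 in DmD8 (SE; adjusted p = 0.247) and -0.35 ± 0.07 in Kc (adjusted p = 0.0106, 34 of 36 ways), and the difference of 0.53 ± 0.11 was called (adjusted p = 0.0114).

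Mis12, a subunit that links the centromere to the outer kinetochore, had 0.24, -0.11, 0.17, -0.22 and -0.05 on the DmD8 arrays and -0.57 to 0.02 with a median of -0.37 on the Kc arrays, around 0 in DmD8 and mostly below it in Kc. Its line mean was -0.02 ± 0.08 in DmD8 (SE; adjusted p = 0.935) and -0.30 ± 0.08 in Kc (adjusted p = 0.0243, 26 of 36 ways), with a difference of 0.28 ± 0.11 (adjusted p = 0.143). The Kc call was lost without array 1, 4 or 5 (adjusted p 0.0915, 0.0933 and 0.0600). The other Ndc80 complex genes, Nuf2 and Spc25, had DmD8 line means of -0.03 and 0.18 and Kc line means of -0.12 and -0.19, none past the threshold.

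In the chromosomal passenger complex, which corrects faulty attachments and then moves to the cleavage site, 1 of 4 genes was called. Its kinase gene aurB had log ratios of 0.65, 0.27, 0.24, 0.46 and 0.43 on the DmD8 arrays and -0.34 to 0.02 with a median of -0.15 on the Kc arrays, so the lines did not overlap. In line means it stood at 0.42 ± 0.08 in DmD8 (SE; adjusted p = 0.00946, 26 of 36 ways) and -0.16 ± 0.07 in Kc (adjusted p = 0.194), with a difference of 0.58 ± 0.11 (adjusted p = 0.00720, 34 of 36 ways). The DmD8 call was lost without array 4 (adjusted p = 0.0637) or array 5 (0.0520). Its partners did not share the call: the scaffold gene Incenp had a DmD8 line mean of 0.14, the survivin gene Det 0.14 and the borealin gene borr -0.10. In Kc, borr had log ratios of -0.51 to -0.0052 with a median of -0.14, all below 0, and a line mean of -0.19 ± 0.07 (adjusted p = 0.126).

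No gene of the spindle checkpoint or of the activators of the anaphase-promoting complex passed limma's threshold in either line. At an unadjusted p under 0.05 there was 1 of 3 checkpoint genes in DmD8 and 0 in Kc, and 1 of 2 activator genes in each line, where 19.7% of all features in DmD8 and 24.6% in Kc had one. The checkpoint gene mad2 had 0.02, -0.11, -0.26, 0.64 and 0.51 on the DmD8 arrays and a line mean of 0.23 ± 0.09 (SE; adjusted p = 0.177), high on the swaps alone. Bub1, a checkpoint kinase gene, had -0.27, -0.31, -0.27, 0.40, 0.43 and 0.59 on the Kc arrays, where its sign followed the dye, and a line mean of 0.09 ± 0.06 (adjusted p = 0.419). The activator gene fzy, fly Cdc20, had 0.38, -0.05, -0.20, 0.38 and 0.29 on the DmD8 arrays (line mean 0.19 ± 0.09, adjusted p = 0.266). Its counterpart fzr, fly Cdh1, had a Kc line mean of -0.18 ± 0.07 (adjusted p = 0.152) and a difference between the lines of 0.36 (adjusted p = 0.0526).

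Spindle motors and microtubule proteins supplied 4 of the 12 listed genes that rose in DmD8, from 6 on the list with a probe. The gene nod encodes a kinesin-like protein that rides on chromosome arms and was found through its role in female meiosis. It had log ratios of 0.62, 0.29, 0.21, 0.57 and 0.57 on the DmD8 arrays and -0.41, -0.25, -0.53, -0.16, -0.27 and -0.10 on the Kc arrays, every DmD8 value above 0 and every Kc value below. The line mean was 0.47 ± 0.08 in DmD8 (SE; adjusted p = 0.00418, 33 of 36 ways) and -0.29 ± 0.07 in Kc (adjusted p = 0.0241, 26 of 36 ways). The difference was 0.76 ± 0.11 (adjusted p = 0.00144). No single array removed the DmD8 call, whereas the Kc call was lost without array 1, 3, 4 or 5 (adjusted p 0.0661, 0.0769, 0.0650 and 0.0911).

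The gene mars, fly HURP, encodes a protein that binds and stabilises spindle microtubules. Its DmD8 log ratios, 0.41, 0.36, 0.26, 0.53 and 0.47, were close together and all above the Kc arrays, which gave -0.23 to 0.04 with a median of -0.15. It rose in DmD8 by 0.42 ± 0.07 (SE; adjusted p = 0.00349, 31 of 36 ways), had a line mean of -0.13 ± 0.06 in Kc (adjusted p = 0.252) and differed between the lines by 0.54 ± 0.09 (adjusted p = 0.00410). No single array removed either call.

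Klp61F, the motor that pushes the spindle poles apart, had a line mean above 0 in both lines, with 0.51, 0.86, 0.46, 0.23 and 0.53 on the DmD8 arrays and 0.92, 0.20, 0.34, 0.48, 0.10 and -0.14 on the Kc arrays. Its line mean was 0.49 ± 0.12 in DmD8 (SE; adjusted p = 0.0315, 19 of 36 ways) and 0.32 ± 0.11 in Kc (adjusted p = 0.0883), with a difference of 0.18 ± 0.16 (adjusted p = 0.534). The minus-end motor gene ncd had 0.40, 0.20, -0.11, 0.67 and 0.60 on the DmD8 arrays and -0.35 to 0.25 with a median of 0.07 on the Kc arrays. Its line mean was 0.40 ± 0.09 in DmD8 (adjusted p = 0.0195, 18 of 36 ways) and -0.01 in Kc (adjusted p = 0.962), and the difference of 0.41 ± 0.12 lay just outside the threshold (adjusted p = 0.0503). Both DmD8 calls were lost without array 1, 2, 4 or 5 (adjusted p 0.0620 to 0.189 for Klp61F and 0.0564 to 0.110 for ncd).

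The gene that rose in Kc, msps, encodes a microtubule polymerase. It had log ratios of -0.32, -0.17, 0.01, 0.28 and -0.18 on the DmD8 arrays, on both sides of 0, and 0.47, 0.24, 0.12, 0.91, 0.74 and 0.33 on the Kc arrays, all above 0. In line means it stood at -0.05 ± 0.11 in DmD8 (SE; adjusted p = 0.804) and 0.47 ± 0.09 in Kc (adjusted p = 0.00760, 36 of 36 ways). The difference, -0.52 ± 0.14 (adjusted p = 0.0353, 18 of 36 ways), was lost in 7 of 11 fits that left out 1 array (adjusted p up to 0.135), namely DmD8 array 1, 2 or 5 or Kc array 1, 2, 4 or 5, and also after centring. The depolymerase gene Klp10A had line means of 0.11 in DmD8 and 0.02 in Kc, neither past the threshold.

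Condensin was the group with a fall in DmD8. Its kleisin subunit gene barr had log ratios of -0.74, -1.01, -0.36, -0.38 and -0.59 on the DmD8 arrays, all below the Kc arrays, which gave 0.03, -0.22, -0.07, 0.25, 0.44 and -0.02. The line mean was -0.60 ± 0.10 in DmD8 (SE; adjusted p = 0.00442, 35 of 36 ways) and 0.07 ± 0.09 in Kc (adjusted p = 0.737), and the difference was -0.66 ± 0.14 (adjusted p = 0.0111). No single array removed the call in DmD8 or the call of the difference. The genes of both SMC subunits of the same complex were not called in either line. SMC2 had 0.50, 0.78, 0.57, -0.02 and 0.43 on the DmD8 arrays (line mean 0.41 ± 0.13, adjusted p = 0.0965) and 1.15, 0.33, 0.34, 0.25, 0.04 and -0.36 on the Kc arrays (line mean 0.29 ± 0.12, adjusted p = 0.149). The other, glu, had line means of 0.02 in DmD8 and 0.13 in Kc.

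Securin, the inhibitor of separase, is encoded by pim. It had log ratios of 0.14, -0.15, -0.03, 0.30 and 0.31 on the DmD8 arrays, all above the Kc arrays, which gave -0.66, -0.53, -1.04, -0.32, -0.27 and -0.35. In line means it stood at 0.14 ± 0.08 in DmD8 (SE; adjusted p = 0.371) and -0.53 ± 0.08 in Kc (adjusted p = 0.00107, 36 of 36 ways), with a difference of 0.67 ± 0.11 (adjusted p = 0.00371). Neither call was lost when any single array was left out. The separase gene thr had line means of 0.11 in DmD8 (adjusted p = 0.559) and 0.24 ± 0.09 in Kc (adjusted p = 0.103), above 0 in both lines and uncalled.

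All 4 cytokinesis genes of the list with a probe rose in DmD8, and all 4 were also higher in DmD8 minus Kc. The gene feo, fly PRC1, encodes the protein that bundles antiparallel microtubules of the central spindle. On the DmD8 arrays it had -0.03, 0.23, 0.24, 0.80 and 0.66, and on the Kc arrays -1.04, -0.81, -0.84, -0.29, -0.16 and -0.23. All DmD8 values lay above all Kc values, and within each line the values with activated RNA in Cy5 were lower than the swaps (means 0.15 and 0.73 in DmD8, -0.90 and -0.23 in Kc). The line mean was 0.44 ± 0.07 in DmD8 (SE; adjusted p = 0.00406, 32 of 36 ways) and -0.56 ± 0.07 in Kc (adjusted p = 0.000305, 36 of 36 ways). The difference of 1.00 ± 0.10 (adjusted p = 0.000148) was the largest of the 34, and no single array removed any of these calls. Averaged without the dye term, feo was not called in DmD8.

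The gene tum encodes a subunit of centralspindlin, the complex that joins the central spindle to the ring. Its log ratios were 0.41, 0.45, 0.07, 0.66 and 0.78 on the DmD8 arrays and -0.29 to 0.06 with a median of -0.07 on the Kc arrays. Every DmD8 value was above 0 and above every Kc value, array 3 by the least. It rose in DmD8 by 0.51 ± 0.08 (SE; adjusted p = 0.00229, 35 of 36 ways), the highest line mean of the 34 genes, with -0.10 ± 0.07 in Kc (adjusted p = 0.463) and a difference of 0.61 ± 0.11 (adjusted p = 0.00417).

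The anillin gene scra, whose product ties the ring to the membrane, had 0.41, 0.33, 0.23, 0.72 and 0.51 on the DmD8 arrays and -0.34, -0.05, -0.09, 0.17, 0.34 and 0.22 on the Kc arrays. All DmD8 values were above 0, and in Kc the sign followed the dye. Its line mean was 0.47 ± 0.08 in DmD8 (SE; adjusted p = 0.00307, 33 of 36 ways) and 0.04 ± 0.07 in Kc (adjusted p = 0.803), with a difference of 0.43 ± 0.10 (adjusted p = 0.0203) that was lost without DmD8 array 4 (0.0768). The last of the 4, pbl, is needed for the ring to form. It had 0.72, 0.63, 0.46, 0.14 and 0.15 on the DmD8 arrays and -0.37 to 0.31 with a median of -0.04 on the Kc arrays, high in Cy5 and low on the swaps in both lines. The DmD8 line mean of 0.37 ± 0.08 (adjusted p = 0.0121, 21 of 36 ways) was lost without array 4 (0.0660) or array 5 (0.0667). The Kc line mean was -0.02 ± 0.07 (adjusted p = 0.922), and the difference of 0.39 ± 0.10 (adjusted p = 0.0316) was lost in 7 of 11 fits that left out 1 array: DmD8 array 1, 2, 4 or 5, or Kc array 1, 4 or 6 (adjusted p up to 0.0781).

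The only centriole gene of the list with a probe, asl, which is needed for centriole duplication, had -0.12, -0.10, -0.11, 0.69 and 0.17 on the DmD8 arrays and 0.27, 0.05, -0.27, 0.49, 0.32 and 0.12 on the Kc arrays. Its line means were 0.16 ± 0.10 in DmD8 (SE; adjusted p = 0.408) and 0.16 ± 0.09 in Kc (adjusted p = 0.304), and the difference was -0.0043 ± 0.13 (adjusted p = 0.988).

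Of the 34 genes, 4 both rose in DmD8 and fell in Kc: feo, bora, nod and Ndc80 (0.224% of features did, 29 of 12952). A DmD8 line mean above 0 with a Kc line mean below 0 was found for 18 of the 34 and for 21.7% of features. Across the 34 genes the line means of DmD8 and Kc correlated at -0.16, and across all features at -0.00315. The part of each gene that changed sign with the dye did correlate between the lines, at 0.841 over the 34 genes and 0.746 over all features. Genes are not independent replicates, each gene's points share a probe, and these correlations carry no p.

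**Figure D4:**
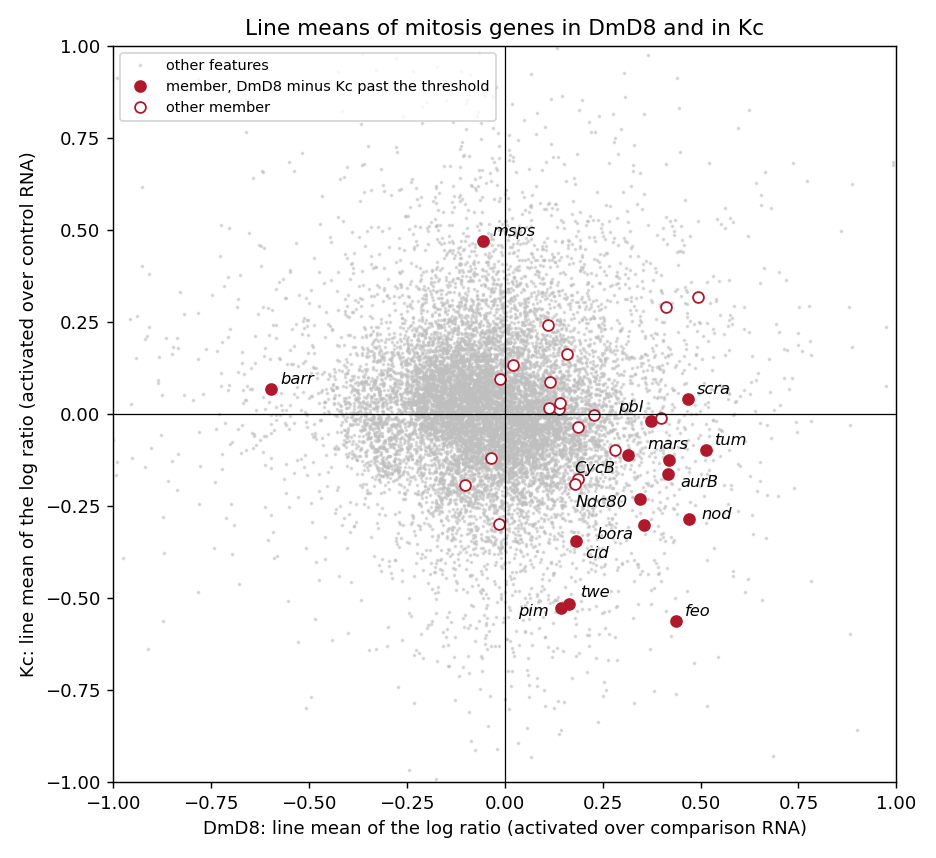
Line mean of the log ratio in DmD8 (x axis) against Kc (y axis) for the 34 genes and all other features (grey); axes end at -1 and 1, which leaves out 109 of 12952 features and none of the 34. Filled points are the 15 genes past the threshold in DmD8 minus Kc: 13 lie toward the lower right and 2, msps and barr, toward the upper left.

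Another 104 mitosis genes outside the list of 45 were read in the same way. Of these, 71 had a probe and 70 were tested. In DmD8 6 of the 70 rose (8.57%, against 3.08% of all features) and 0 fell (4.16% of features did) by limma, and 18 had an unadjusted p under 0.05 in either direction (25.7%, against 19.7%). In Kc 5 rose (7.14%, against 7.10%) and 2 fell (2.86%, against 4.81%), and 25 had an unadjusted p under 0.05 (35.7%, against 24.6%). The median line mean was 0.06 in DmD8 and 0.04 in Kc. In DmD8 minus Kc 6 were higher (8.57%, against 4.42%) and 4 lower (5.71%, against 6.51%), and 29 had an unadjusted p under 0.05 (41.4%, against 24.9%).

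Klp67A, a motor that limits the length of spindle microtubules, had the smallest p in DmD8 of the wider set. It had log ratios of 0.52, 0.58, 0.45, 0.55 and 0.77 on the DmD8 arrays and -0.02 to 0.06 with a median of 0.04 on the Kc arrays, without overlap. Its line mean was 0.59 ± 0.07 in DmD8 (SE; adjusted p = 0.000346, 36 of 36 ways) and 0.03 ± 0.06 in Kc, with a difference of 0.55 ± 0.09 (adjusted p = 0.00295). The others that rose in DmD8 were the augmin subunit gene dgt4 (0.37, adjusted p = 0.0122), the centriole genes Cep135 (0.39, 0.0133), spd-2 (0.31, 0.0377) and SAK (0.41, 0.0406), and the kinetochore gene rod (0.37, 0.0480). Centriole genes made up 3 of these 6, from 7 tested. Leaving out 1 DmD8 array removed the calls of dgt4 (array 4 or 5; adjusted p up to 0.0760), Cep135 (array 4; 0.122), spd-2 (array 1, 2, 4 or 5; up to 0.140), SAK (any array; up to 0.215) and rod (array 1, 2 or 4; up to 0.314), but not that of Klp67A.

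In Kc the wider set gave rises in the formin gene dia, which builds actin filaments for the ring (0.62, adjusted p = 0.000833), the centrosome scaffold gene Plp (0.62, 0.00222), the phosphatidylinositol kinase gene fwd (0.43, 0.00733), the cohesin protector gene dmt (0.41, 0.0150) and the microtubule-binding gene chb (0.28, 0.0302). Grip71, which brings γ-tubulin to the spindle, fell in Kc (-0.48, adjusted p = 0.00154), as did the spindle orientation gene mud (-0.31, 0.0181). Of 9 other cytokinesis genes tested, 0 passed limma's threshold in DmD8 (7.24% of all features did) and 0 had an unadjusted p under 0.05 (19.7%). In Kc 5 of the 9 had an unadjusted p under 0.05 by limma (55.6%, against 24.6% of all features). The same number had one in DmD8 minus Kc (55.6%, against 24.9%). Both dia and fwd, among these 9, rose in Kc and were lower in DmD8 minus Kc (-0.54, adjusted p = 0.0213, and -0.48, 0.0348). Leaving out 1 Kc array removed the calls in Kc of dmt (array 1 or 4; adjusted p up to 0.0647), mud (array 1 or 5; up to 0.0768) and chb (array 1, 3, 4, 5 or 6; up to 0.116). The differences were lost for dia without DmD8 array 4 or Kc array 5 (up to 0.0873) and for fwd without DmD8 array 2, 3 or 5 or Kc array 1, 4 or 5 (up to 0.132).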

How the data were processed

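Ratios of activated over comparison RNA were measured on 2-colour oligonucleotide arrays in DmD8 and Kc cells, with spots quantified in Dapple per the labels. The authors deposited log ratios of 17258 probes (13353 to 15638 values per array), taken here as log2 from their range of -3.35 to 6.51. The log base, background correction, normalization and the turning of swaps are not stated in the labels or file headers, so no folds are given. Precision is limited by the number of arrays. The 5 DmD8 columns titled for the inhibitor held the values of the 5 titled for the control (71019 pairs, 24 not identical, by at most 4.87e-08), so 11 of 16 arrays were used.

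Probes were named through the platform annotation where it gave 1 symbol (12658 probes; 96 had several and 4504 none), and probes of 1 gene were averaged (436 genes had over 1). Features needed at least 3 values and both dye orientations in each line. A single limma 3.58.1 fit in R 4.3.3 gave each line a mean and a dye term, with empirical Bayes moderation and Benjamini-Hochberg adjustment over 12952 features at 0.05. It was run on simulated data with noise drawn independently for each array. That simulation did not model swaps sharing a biological replicate, so it does not show that the p-values are right. Adjusted p-values in the text are from this fit unless a setting is named. Alternatives were array centring and scaling, no dye term, swaps turned, Cy5 arrays alone, other feature filters, unaveraged probes, a robust fit, leaving out each array, Kc arrays 2 and 5 left out together, a replicate block and the 36 ways of averaging swaps with replicates. Genes given array by array are those past the threshold in any comparison and the largest line mean of each role. Of the wider set, up to 6 called genes with the smallest p per line were to be named, and chb, the seventh called in Kc, was named after its values were seen. The members and lists were chosen with earlier results of these data known. Motifs in promoters were not analysed here.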

Additional observations from a re-analysis of the deposited data

Results flagged for a closer look

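The ratio differed between the lines, by the limma test of DmD8 minus Kc, for 15 of the 34 mitosis genes. Higher in DmD8 were feo by 1.00, nod by 0.76, twe by 0.68, pim by 0.67, bora by 0.66, tum by 0.61, aurB by 0.58, Ndc80 by 0.58, mars by 0.54, cid by 0.53, CycB by 0.43, scra by 0.43 and pbl by 0.39 on the log ratio scale. Lower in DmD8 were barr at -0.66 and msps at -0.52. The difference of twe, cid and pim comes with a fall called in Kc and a DmD8 line mean that was not called, whereas that of aurB, mars, tum, scra, pbl and CycB comes with a rise called in DmD8 and a Kc line mean that was not called. The part of the comparison RNA in these differences was not tested.

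CycB3 had a log ratio of -0.54 on Kc array 2, far below the other 5 Kc arrays. It was the single such value among 68 sets of 1 gene in 1 line, of which chance alone would mark about 1 in 20.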

How the results depend on the processing

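The counts of called genes, out of 34, were 13 in DmD8, 9 in Kc and 15 in DmD8 minus Kc. They fell to 7, 5 and 9 with no dye term (3.52%, 5.06% and 3.90% of all features), which lost CycB, Ndc80, Klp61F, ncd, feo and pbl in DmD8 and Ndc80, Mis12, cid and nod in Kc. With activated RNA in Cy5 only, DmD8 gave 6 (6.37% of features) and the difference 2 (1.46%). With swaps turned, Kc gave 5 and the difference 0 (2 at an unadjusted p under 0.05). Without Kc arrays 2 and 5, Kc gave 4 (6.56%). Leaving out 1 array at a time gave 6 to 12 in DmD8 (3.73% to 7.52% of features), 6 to 8 in Kc (7.27% to 10.3%) and 12 to 16 in the difference (7.25% to 10.1%). DmD8 array 4 (7 without it) and array 5 (6) moved the DmD8 count most. Replicate numbers shared by the lines did not pair the arrays: deviations of same-numbered arrays correlated at -0.30, -0.33, 0.20, -0.13 and -0.09. With the replicate block, 6 genes were called in DmD8 (3.31% of features), 4 in Kc (7.05%) and 10 in the difference (4.69%). The averaging of swaps with replicates that called fewest gave 0 in DmD8 (15 at an unadjusted p under 0.05), 4 in Kc and 4 in the difference. In these, 242, 678 and 363 of 10060 features were called. Centring, scaling, feature filters, single probes and the robust fit left each count within 1.5 times its value; centring moved the share of higher among all called features in DmD8 to 54.7% from 42.5%, and in the difference to 56.0% from 40.4%.

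With swaps turned, the sign turned for 20 of the 34 genes in DmD8, 13 in Kc and 22 in the difference. The line estimates in that reading equal the dye terms of the main fit, so they are not a second measure of activation in the deposited reading. For genes called in at least 1 of the readings, the wider set included, the estimates of opposite sign were, in DmD8, fzr -0.33, mad2 -0.35, aurB -0.0275, Incenp -0.31, cid -0.36, Klp10A -0.36, ncd -0.24, nod -0.10, mars -0.0785, feo -0.29, tum -0.20, scra -0.14, rod -0.15, Klp67A -0.0697, dgt4 -0.22, SAK -0.17, spd-2 -0.32 and Cep135 -0.25. In Kc they were Bub1 -0.38, Ndc80 0.19, Mis12 0.14, msps -0.19, pbl 0.22, thr -0.30, chb -0.14, Plp -0.18 and fwd -0.15. In DmD8 minus Kc they were twe -0.093, cid -0.21, msps 0.0883, mars -0.0422, tum -0.13, barr 0.0464, Klp67A -0.0582, dgt4 -0.016, spd-2 -0.17, dia 0.10 and fwd 0.0902. With activated RNA in Cy5 only, spd-2 was at -0.0033 in DmD8.

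Depth is not known from ratios. The promoter description was not run.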

Other observations

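Some of the 34 genes followed the dye in both lines. In both lines CycB, Ndc80, pbl, glu and SMC2 had higher log ratios where the activated RNA was in Cy5, and Bub1, fzr, cid, feo and thr had higher log ratios on the swaps. For glu the DmD8 means were 0.45 in Cy5 and -0.40 on the swaps, and the Kc means were 0.55 and -0.28. For Bub1 the DmD8 means were -0.23 in Cy5 and 0.21 on the swaps, and the Kc means were -0.28 and 0.47. These genes were picked after their values were seen, and what the dye pattern comes from was not tested.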
